A study of Mus musculus with 4 samples.

Results

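Adhesion genes used by leukocytes to enter and stay in the gut were followed in single monocytes and macrophages of the mouse colon. The 9 genes were Itgam, Itgax, Itgal, Itga4, Itgb1, Itgb2, Itgb7, Icam1 and Vcam1, chosen by name from the 28692 genes of the count table and all present in it. They were described in barcodes with at least 1000 unique molecular identifiers (UMIs, tags that count single transcripts), of which there were 4771 among 6954. Cells came from the colon lamina propria (the connective tissue under the epithelium) of 4 male C57/Bl6N mice, with no genetic change named in the labels. DEP 11 and DEP 13 had been gavaged for some 6 months, 5 days per week, with 12 µg of diesel exhaust particles (DEP) suspended in 200 µL of PBS, and PBS 2 and PBS 3 with PBS only. No age is stated for the mice. Cells had been sorted for CD11b together with Ly6C or CD64, so each mouse gave a single library of gated cells. CD11b is the protein of Itgam, and a level of Itgam in these cells is therefore in part set by the sort.

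An integrin is a pair of an alpha and a beta chain at the cell surface that holds a cell to a ligand on other cells or in the matrix. The β2 chain (Itgb2) pairs with αL (Itgal, making LFA-1), αM (Itgam, making Mac-1) or αX (Itgax, making CD11c with CD18), and ICAM-1 (Icam1) is a ligand of LFA-1 and Mac-1. The α4 chain (Itga4) pairs with β1 (Itgb1) to bind VCAM-1 (Vcam1), or with β7 (Itgb7) to bind MAdCAM-1, the addressin of gut vessels that directs leukocytes into the intestine. Blood monocytes that enter the colon carry Ly6C and, as they mature into resident macrophages, lose it and gain complement C1q genes.

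In the annotation (GENCODE M21, build mm10) Itgal, Itgam and Itgax lie on the plus strand of chromosome 7, at chr7:127296260-127335138, chr7:128062640-128118491 and chr7:128129547-128150657. The α4 chain gene Itga4 is at chr2:79255426-79333123, and the beta chain genes Itgb1, Itgb2 and Itgb7 are at chr8:128685654-128733200, chr10:77530252-77565708 and chr15:102215995-102231944. The ligand genes Icam1 and Vcam1 are at chr9:21015985-21028817 and chr3:116109949-116129688. The promoters of 3 members are shown because these members gave the contrasting patterns below: Itgax, which was higher in C1qa-high cells, Itgb7, which was lower in them, and Itgam, which lies next to Itgax on chromosome 7. The windows of 300 bases lie mostly before the start of the gene and reach a short way into it (RefSeq, GRCm38.p6, which held 6 of the 9 members), 5′ to 3′ on the gene's strand. Capitals mark the core GAGGAA, or TTCCTC on the other strand, that the myeloid factor PU.1 is known to bind.
Itgax, chr7:128129300-128129599, plus strand: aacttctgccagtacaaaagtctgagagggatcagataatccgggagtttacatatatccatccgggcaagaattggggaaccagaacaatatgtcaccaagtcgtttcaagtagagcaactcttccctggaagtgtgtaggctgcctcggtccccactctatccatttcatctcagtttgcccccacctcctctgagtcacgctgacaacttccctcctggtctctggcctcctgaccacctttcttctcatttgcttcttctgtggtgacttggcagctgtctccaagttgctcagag
Itgb7, chr15:102231886-102232185, minus strand: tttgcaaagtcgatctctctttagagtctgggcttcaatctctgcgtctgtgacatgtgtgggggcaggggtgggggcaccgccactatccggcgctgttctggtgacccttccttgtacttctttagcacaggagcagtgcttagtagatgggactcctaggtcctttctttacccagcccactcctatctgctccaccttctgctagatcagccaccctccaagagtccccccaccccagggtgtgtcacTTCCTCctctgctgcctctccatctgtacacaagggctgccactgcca
Itgam, chr7:128062390-128062689, plus strand: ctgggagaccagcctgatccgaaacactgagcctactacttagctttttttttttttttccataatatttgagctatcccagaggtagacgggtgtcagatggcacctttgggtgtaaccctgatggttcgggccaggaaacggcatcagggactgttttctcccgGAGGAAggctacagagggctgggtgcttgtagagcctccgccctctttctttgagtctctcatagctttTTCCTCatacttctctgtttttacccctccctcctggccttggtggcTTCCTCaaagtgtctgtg
The core was found 3 times in the window of Itgam and 1 time in each of those of Itgb7 and Itgb1. It was not found in those of Itgax, Itga4 and Icam1. Of all 32851 promoter windows of this length, 28.3% held it. The NF-kB consensus, searched on both strands, was in none of the 6 windows and in 4.51% of all, so no matches of the motifs overlapped. These matches describe letters and not bound sites.

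Of the 4771 barcodes, 4623 passed the study's limits on gene number and mitochondrial share, and 266 of these with 3 or more UMIs of T cell, B cell or plasma cell genes were set apart. The 4357 analysed cells comprised 1136 and 607 from DEP 11 and DEP 13 and 1183 and 1431 from PBS 2 and PBS 3, with a median of 5317 to 7192 UMIs per cell. Doublets were called in 3.83% of the cells of DEP 13 and in 0.322% to 1.35% of those of the other mice. Of the barcode sequences, 39 were present in more than 1 mouse, which concerned 20 analysed cells. Plasma cell genes summed to between 318 and 1303 CPM (counts scaled to 1000000 UMIs of the summed cells) in the 4 mice, highest in PBS 3. Dendritic cell genes were all seen (8 of 8, summing to 327 to 437 CPM), as were 5 of 6 neutrophil genes (32.0 to 42.1 CPM, S100a9 at 0), 4 of 6 endothelial genes (28.4 to 39.2 CPM, Tek and Madcam1 at 0) and all 5 B cell genes (29.9 to 41.0 CPM). Genes of T and NK cells, eosinophils and mast cells each summed to under 10 CPM. The T and NK, B and plasma cell lists share Cd3d, Cd3e, Cd3g, Cd79a, Cd79b, Ms4a1, Mzb1 and Derl3 with the filter that had set barcodes apart. The sums of these lists are therefore held down by that filter. Colon epithelium genes summed to 14.4 to 114 CPM and stroma genes to 3.68 to 34.4 CPM, and their part in the values below was not tested.

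Cells were divided by their level of Ly6c2 and of C1qa, each at the threshold that best separated the low from the high cells (1.77 UMIs of Ly6c2 and 20.7 UMIs of C1qa per 10000 UMIs of the cell). The Ly6c2-high C1qa-low class held 896 cells (233, 115, 246 and 302 in DEP 11, DEP 13, PBS 2 and PBS 3). The C1qa-high Ly6c2-low class held 2308 cells (575, 359, 654 and 720). High in both were 318 cells, of which DEP 13 gave only 17, and low in both were 835 cells. A class cut from the level of a gene is a range and not a cell type: 444 cells lay within 0.25 log2 units of the Ly6c2 cut and 273 within the same distance of the C1qa cut. All 10 resident macrophage markers tested, other than C1qa itself, were higher in the C1qa-high class, and all 6 monocyte markers tested, other than Ly6c2, were lower. Of the 10, Fcgr1 codes CD64, a protein of the gate, and C1qb and C1qc code partner chains of C1qa. Calls of these genes are no independent support for the classes. The median depth was 4878 UMIs in the Ly6c2-high class and 7211 in the C1qa-high class. A single Ly6c2 UMI passed the cut in a shallow cell but not in a deep one, so the class of a cell also depends on its depth. Genes of other cell types also moved with the class. The neutrophil genes summed to 46.2 to 68.4 CPM in Ly6c2-high cells, with S100a9, Retnlg and Cxcr2 at 0, and to 26.3 to 34.5 CPM in C1qa-high cells, with S100a9 at 0, and Csf3r, the 1 tested, was called lower. The B cell genes summed to 22.2 to 25.0 CPM and 32.8 to 48.3 CPM, and Cd79b, the 1 tested, was called higher. Cd79b was also a gene of the filter that had set barcodes apart. Colon epithelium genes summed to 5.65 to 38.6 CPM and 10.7 to 109 CPM, and Car1, the 1 tested, was called higher. The part of these genes in the class differences below was not tested.

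The first question was how the adhesion genes differed between the monocyte end and the macrophage end of the colon cells. Between the classes, 7 of the 9 genes passed the test (edgeR quasi-likelihood test on UMIs summed per mouse, mouse as block, Benjamini-Hochberg false discovery rate [FDR] of 5%). Vcam1 and Itgax were higher in C1qa-high cells, and Itgb7, Itgal, Itga4, Itgb2 and Icam1 were lower. The classes differed at many genes, and 39.3% of the 6760 genes tested were called, 19.0% as higher and 20.3% as lower. All log2 fold changes below are of C1qa-high over Ly6c2-high cells with their standard error (SE), and levels are means over the 4 mice in CPM. Levels are compared between cells for a gene and not between genes.

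**Figure D1:**
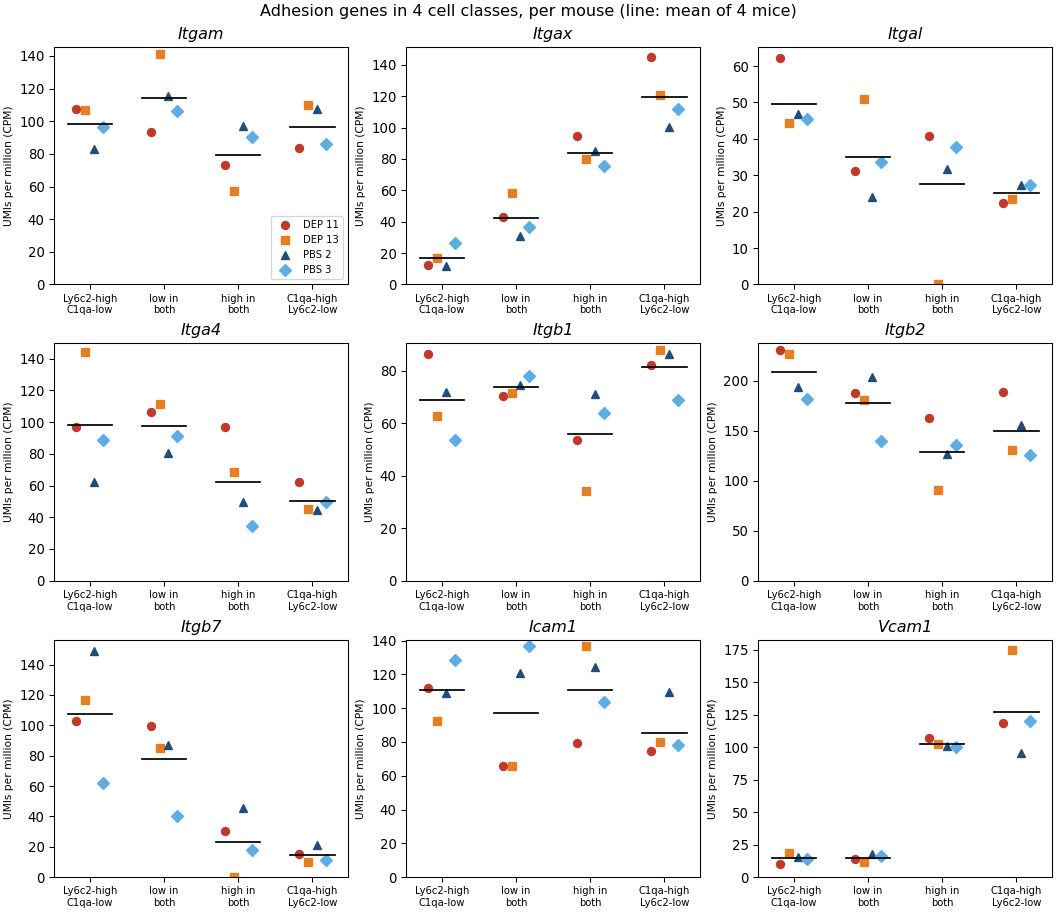
Level of each adhesion gene (vertical axis, CPM) in 4 classes of cells (horizontal axis), with 1 point per mouse and a line at the mean of 4 mice. Itgax and Vcam1 lie low in the Ly6c2-high class (means 16.8 and 14.4 CPM) and high in the C1qa-high class (119 and 127 CPM), Itgb7 runs the other way (108 and 14.4 CPM), and Itgam stays at 98.5 and 96.7 CPM.

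Among the β2 integrins, the alpha chains went in different directions. Itgax, coding CD11c, a chain often used to mark dendritic cells and intestinal macrophages, was at 12.2, 16.6, 11.7 and 26.5 CPM in the Ly6c2-high cells of DEP 11, DEP 13, PBS 2 and PBS 3. In the C1qa-high cells of the same mice it was at 145, 121, 100.2 and 112 CPM. Every C1qa-high value lay above every Ly6c2-high value, and the difference was 2.83 on the log2 scale (SE 0.16, adjusted p = 4.38e-11). The Ly6c2-high values rest on few Itgax UMIs (13, 9, 17 and 35 in the same order of mice). Itgax was also the member whose 4 classes were fully ordered: the means were 16.8 in Ly6c2-high cells, 42.2 in cells low in both, 83.7 in cells high in both and 119 in C1qa-high cells, and the ranges of neighbouring classes did not overlap. The dendritic cell genes summed to 248 to 380 CPM in Ly6c2-high cells, with Xcr1 and Itgae at 0, and to 337 to 440 CPM in C1qa-high cells. Of the 2 dendritic cell genes tested, Cd209a and Irf8, 1 was called higher in C1qa-high cells and 1 lower. The part of the dendritic cell genes in the Itgax difference was not tested.

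Itgal, the alpha chain of LFA-1, went the other way. It was at 62.1, 44.3, 46.7 and 45.5 CPM in Ly6c2-high cells and at 22.3, 23.5, 27.4 and 27.3 CPM in C1qa-high cells. All mice were lower in C1qa-high cells, by 0.93 on the log2 scale (SE 0.14, adjusted p = 2.59e-05). The classes between had means of 27.5 CPM (high in both) and 34.9 CPM (low in both) and overlapped with their neighbours, with DEP 13 at 0 in its 17 cells high in both. The summed neutrophil genes given above were lower in C1qa-high cells, as were Itgal, Itgb2 and Itgb7.

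Itgam, whose protein was part of the gate, was at 107, 107, 83.1 and 96.2 CPM in Ly6c2-high cells and at 83.4, 110.2, 108 and 85.8 CPM in C1qa-high cells. These ranges lay over each other, and the difference was 0.01 (SE 0.10, adjusted p = 0.946, 95% interval -0.21 to 0.23). Its sign turned under other processing. The shared beta chain Itgb2 was at 231, 227, 194 and 182 CPM in Ly6c2-high cells and at 188, 131, 156 and 126 CPM in C1qa-high cells. The ranges overlapped, but each mouse was lower in its C1qa-high cells, by 0.42 on the log2 scale (SE 0.08, adjusted p = 0.000252). With every cell thinned to 1000 UMIs the Itgb2 difference was no longer called (adjusted p = 0.156).

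The chains of the α4 integrins were compared next. Itgb7, the beta chain of the gut-homing receptor α4β7, was at 103, 116, 149 and 62.1 CPM in the Ly6c2-high cells of DEP 11, DEP 13, PBS 2 and PBS 3. In C1qa-high cells it was at 15.1, 9.84, 21.1 and 11.4 CPM. The groups were far apart, and the difference was -2.80 on the log2 scale (SE 0.13, adjusted p = 2.40e-12). Cells low in both classifying genes had 77.9 CPM on average, and those high in both had 23.3 CPM. Each of the 4 mice was higher in cells low in both than in cells high in both, though the ranges over mice overlapped.

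Itga4, the alpha chain shared by both receptors, was at 97.0, 144, 62.5 and 88.7 CPM in Ly6c2-high cells and at 62.3, 45.4, 44.8 and 49.7 CPM in C1qa-high cells. All Ly6c2-high values were above the highest C1qa-high value, if by little in PBS 2 (62.5 CPM, against 62.3 CPM in DEP 11), and the difference was -0.81 (SE 0.14, adjusted p = 7.34e-05). Itgb1, the other partner of α4 and of many further alpha chains, was at 86.6, 62.8, 72.1 and 53.8 CPM in Ly6c2-high cells and at 82.4, 87.8, 86.3 and 68.8 CPM in C1qa-high cells. DEP 11 was slightly lower in C1qa-high cells and the other 3 mice were higher, and the difference of 0.25 (SE 0.10) did not pass (adjusted p = 0.0552). In 7 of the 18 other ways of processing it did, among them without DEP 11 (0.36, adjusted p = 0.0205).

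Since both beta chains pair with α4, their UMIs were also set against each other within a class. Per UMI of Itgb1, the Ly6c2-high cells held 1.18, 1.85, 2.07 and 1.15 UMIs of Itgb7 in DEP 11, DEP 13, PBS 2 and PBS 3. The C1qa-high cells held 0.184, 0.112, 0.245 and 0.165. The ranges of the classes were apart. This ratio of transcripts is given without a test and does not state how much of either protein pair was at the surface.

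The ligand genes differed from each other. Vcam1, best known on activated endothelium and also made by some tissue macrophages, was at 10.4, 18.5, 15.1 and 13.6 CPM in Ly6c2-high cells and at 119, 175, 95.3 and 120.3 CPM in C1qa-high cells. All C1qa-high values were above all Ly6c2-high values, by 3.12 on the log2 scale (SE 0.14, adjusted p = 9.19e-13), which was the largest change of the 9 genes. The Ly6c2-high values rest on few Vcam1 UMIs (11, 10, 22 and 18 in DEP 11, DEP 13, PBS 2 and PBS 3). Vcam1 followed the C1qa cut: its mean was 14.9 CPM in cells low in both and 103 CPM in cells high in both, with no overlap between mice. Within the C1qa-low cells, the Ly6c2-high class at 14.4 CPM and the cells low in both at 14.9 CPM overlapped. The list of 6 endothelial genes moved with Vcam1: it summed to 9.61 to 14.8 CPM in Ly6c2-high cells and to 36.1 to 48.8 CPM in C1qa-high cells, and Pecam1 was the 1 of the 6 expressed enough to be tested. Pecam1 gave 8.34 to 12.9 CPM of the first sum and 34.6 to 46.6 CPM of the second. Tek and Madcam1 were at 0 in both classes, and Cdh5 and Plvap were at 0 in Ly6c2-high cells but had UMIs in C1qa-high cells. The part of endothelial RNA in the Vcam1 difference was not tested.

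Icam1, induced by inflammatory signals on many cell types, was at 112, 92.4, 109 and 129 CPM in Ly6c2-high cells and at 74.7, 79.9, 109.6 and 78.2 CPM in C1qa-high cells. PBS 2 was level between its classes, the other 3 mice were lower in C1qa-high cells, and the difference was -0.35 (SE 0.11, adjusted p = 0.0133). This call was not stable. It was lost without DEP 11 (-0.29, adjusted p = 0.0777), without PBS 3 (-0.21, adjusted p = 0.177) and without the mouse as block (-0.35, adjusted p = 0.0772). It was also lost with DESeq2 (-0.36, adjusted p = 0.0722), with classes from thinned cells (-0.23, adjusted p = 0.217) and with doubled cuts (-0.29, adjusted p = 0.0549), and after thinning the sign turned (0.22, adjusted p = 0.402).

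**Figure D2:**
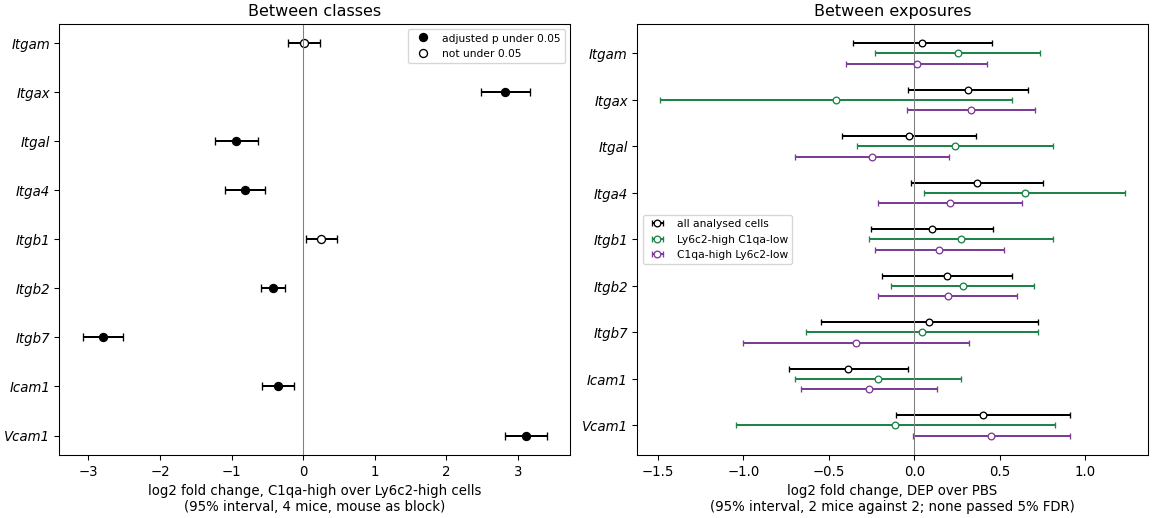
Fitted log2 fold changes (horizontal axis) with 95% intervals for the 9 genes, on the left C1qa-high over Ly6c2-high cells in 4 mice and on the right DEP over PBS in all analysed cells, Ly6c2-high cells and C1qa-high cells. Filled points passed the FDR of 5%: 7 of 9 genes on the left, none on the right.

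A division into classes can hide steps, so cells were also placed in 5 bins of equal number by C1qa level. Vcam1 rose at every step in all 4 mice, with means of 12.5, 18.2, 71.9, 115 and 189 CPM from the lowest to the highest bin. Itgax rose at every step in 3 of 4 mice, from 22.4 through 37.4, 90.3 and 119 to 132 CPM, and in DEP 13 the highest bin (116 CPM) lay below the one before it (130 CPM). The means of Itgb7 were 97.1, 80.8, 21.5, 14.9 and 10.4 CPM. The largest step of Itgb7 thus lay between the second and the third bin, where the C1qa level passes 21.1 per 10000 UMIs, and all 4 mice fell there.

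Itga4 followed with 98.3, 96.7, 59.8, 48.1 and 49.6 CPM, and Itgal with 45.5, 38.1, 31.8, 24.3 and 24.1 CPM. For these 2 alpha chains the highest bin was lower than the lowest in each mouse. Itgb2 went from 208 to 151 CPM, also lower in each mouse, and Itgb1 from 72.3 to 95.3 CPM, higher in each mouse. Icam1 (99.8 and 93.6 CPM) was higher in the last bin in 2 mice and lower in 2, and Itgam (99.0 and 83.7 CPM) was lower in 3 of 4. These bins describe the cells and were not tested, since the classes had been cut on the same gene.

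**Figure D3:**
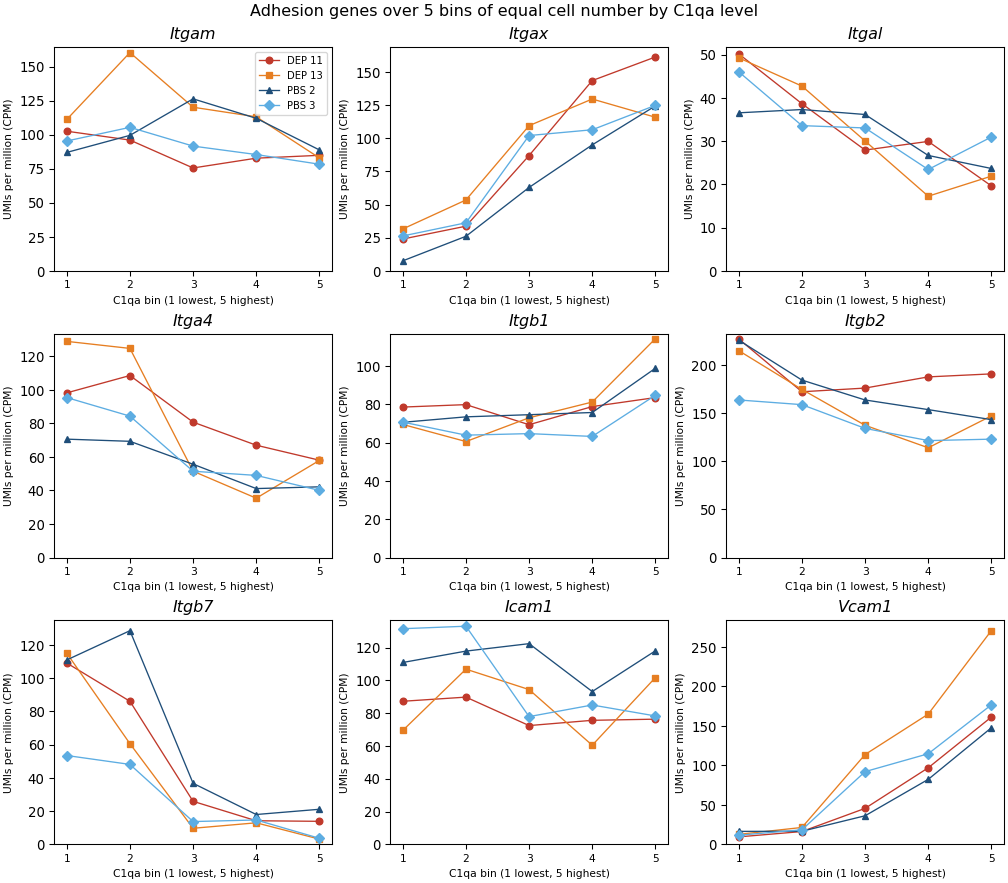
Level of each gene (vertical axis, CPM) over 5 bins of cells by C1qa level (horizontal axis, 1 lowest to 5 highest), with a line per mouse. Vcam1 and Itgax climb, Itgb7 drops between bins 2 and 3 in every mouse (means 80.8 and 21.5 CPM), and Itgam and Icam1 show no steady course.

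By Ly6c2 level, cells without a Ly6c2 UMI (2539 cells) were set beside 3 bins of 606 cells with rising level. Itgb7 had means of 24.4, 31.4, 62.7 and 110.0 CPM from cells at 0 to the highest bin. It rose at every step in 3 of 4 mice, the exception being DEP 11 between cells at 0 (33.4 CPM) and the lowest bin (32.6 CPM). Itgax was at 101, 118, 53.3 and 15.9 CPM, and Vcam1 at 107, 98.6, 61.3 and 14.6 CPM. Both were lower in the highest than in the middle bin in all 4 mice. Itga4 (61.4 and 95.03 CPM in cells at 0 and in the highest bin), Itgal (28.7 and 47.5 CPM) and Itgb2 (151 and 199.9 CPM) were higher in the highest bin in each mouse. Itgb1 (80.1 and 65.8 CPM) was lower there in each mouse, Icam1 (91.8 and 114 CPM) was higher in 3 of 4 mice, and Itgam (100.8 and 100.9 CPM) was higher in 2 and lower in 2. The lowest bin above 0 held deep cells, with a median of 8594 UMIs against 4847 in the highest, because a single Ly6c2 UMI is a low level only in a deep cell.

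**Figure D4:**
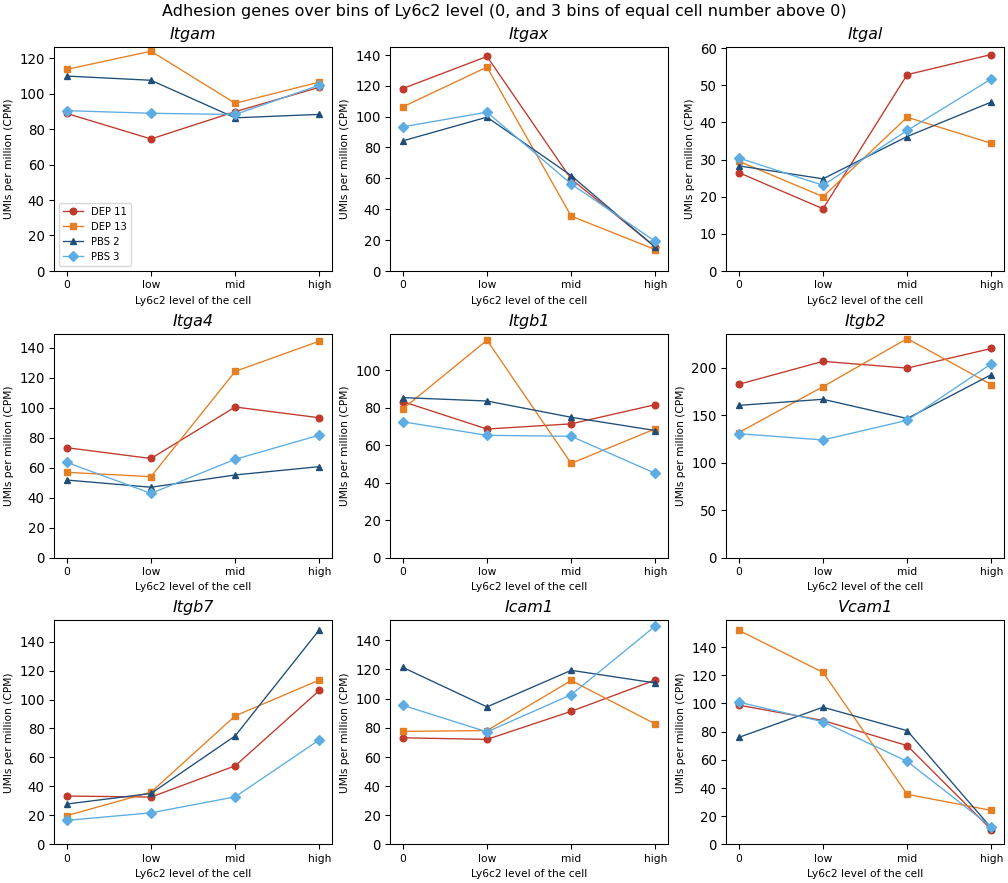
Level of each gene (vertical axis, CPM) in cells without a Ly6c2 UMI and in 3 bins of equal cell number above 0 (horizontal axis), with a line per mouse. In the highest bin Itgax and Vcam1 are lowest (means 15.9 and 14.6 CPM) and Itgb7 is highest (110.0 CPM).

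The share of cells in which a gene was seen was compared after every cell had been thinned to 1000 UMIs, because C1qa-high cells were deeper. A Vcam1 UMI was then found in 1.45% of Ly6c2-high and 10.4% of C1qa-high cells (5.80% and 32.1% before thinning). For Itgax the thinned shares were 1.56% and 10.0% (7.48% and 49.3% before), and for Itgb7 they were 9.82% and 1.13% (35.4% and 10.2% before). The order of each pair was that of the CPM in all 4 mice.

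The 266 barcodes with lymphoid or plasma cell genes, at a median of 8992 UMIs, were set beside these shares. Thinned, they held a Vcam1 UMI in 6.02% (1.96% to 7.34% by mouse) and an Itgax UMI in 5.64% (1.64% to 11.8%). By mouse, Ly6c2-high cells had 0.813% to 2.32% for Vcam1 and 0% to 2.32% for Itgax, and C1qa-high cells 7.95% to 13.4% and 8.10% to 11.8%, and of these ranges only that of Vcam1 in C1qa-high cells lay apart from the lymphoid barcodes. Of the 266, 109 had the Ly6c2 and C1qa levels of the C1qa-high class, so they give no level of free RNA, and none was set. The other integrin genes are also carried by lymphocytes. The thinned shares in Ly6c2-high and C1qa-high cells were 5.25% and 2.34% for Itgal, 9.49% and 4.98% for Itga4, 8.15% and 8.36% for Itgb1 and 17.4% and 14.2% for Itgb2.

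Icam1 was seen in 7.48% of Ly6c2-high and 8.15% of C1qa-high cells after thinning, against 8.65% of lymphoid barcodes, so no order is read from its shares. In the 1614 barcodes under 500 UMIs, which may hold free RNA or broken cells, Icam1 was at 64.5 to 274 CPM in the 4 mice. Vcam1 was at 41.1 to 80.7 CPM there and Itgax at 32.9 to 96.8 CPM, between the levels of the 2 classes.

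Both chains of an integrin are needed in a cell to make the receptor, so UMIs of both were counted in the same cells. At full depth, 20.8% of Ly6c2-high and 29.9% of C1qa-high cells held UMIs of both Itgam and Itgb2. Itgax and Itgb2 were found together in 4.35% and 33.6%, and Itga4 and Itgb7 in 11.9% and 4.29%. The product of the separate shares was 20.2% and 27.1% for the first pair, 4.37% and 29.4% for the second and 12.0% and 2.98% for the third, which is the share that chains seen independently of each other would give. Itgal with Itgb2 was at 11.5% in each class, and Itga4 with Itgb1 at 9.49% and 13.6%. C1qa-high cells were deeper (median of 7211 UMIs, against 4878 in Ly6c2-high cells), and shares at full depth also follow depth. Thinned to 1000 UMIs, Itgam was seen in 10.0% of Ly6c2-high and 8.10% of C1qa-high cells, and Itgb2 in 17.4% and 14.2%. No pair was then found in more than 2.12% of either class, so the depth did not allow pairs to be followed in single cells.

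The other genes of the adhesion machinery were taken from 4 lists. Genes were tested if a UMI was in 5% or more of the cells of both classes together, so a gene could enter through the class in which it was high, where a difference is built in. Each of the 9 adhesion genes reached 5% in both classes, but some list genes did not, and the counts below are of list genes that did. Of all genes that reached 5% in both classes, 15.1% were called higher and 24.0% lower, with a median log2 fold change of -0.06.

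Of 20 other integrin subunits, 4 were tested and 3 of these reached 5% in both classes, of which 2 were higher in C1qa-high cells and 0 lower, too few to describe the list. Itga9, which codes a relative of α4 that also binds VCAM-1, reached it only in C1qa-high cells, and its levels were 1.85 to 9.41 CPM in Ly6c2-high cells (22 UMIs in all) and 25.7 to 37.2 CPM in C1qa-high cells. Itgb5 (1.98, SE 0.11, adjusted p = 2.57e-11) and Itgav (1.58, SE 0.14, adjusted p = 3.08e-08) code the chains of the vitronectin receptor αvβ5, which takes part in the uptake of dying cells.

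Of 7 tested genes among selectins and the makers and carriers of their ligands, 4 reached 5% in both classes, of which 3 were lower and 0 higher (median -0.34). St3gal4 (-1.34, SE 0.14) codes a sialyltransferase that builds selectin ligands. Spn, which codes the sialomucin CD43, reached 5% only in Ly6c2-high cells and was at 12.9 to 22.2 CPM there and at 4.47 to 7.57 CPM in C1qa-high cells.

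Of 19 tested genes that activate integrins or tie them to actin, 18 reached 5% in both classes, of which 9 were lower, against 24.0% of all such genes, and 2 were higher, which is near the 15.1% of all such genes (median -0.34). The lower genes with the largest changes were Rasgrp2 (-2.07, SE 0.15) and Rasgrp4 (-1.51, SE 0.14), which are guanine nucleotide exchange factors, and Flna (-1.25, SE 0.10), which codes the actin crosslinker filamin A. Rasgrp2 is the factor that loads Rap1 in the activation of leukocyte integrins. The 2 higher genes were Cyth1 (0.75, SE 0.15), which codes the β2-binding cytohesin 1, and Parvg (0.67, SE 0.23), which codes an actin-binding parvin. Fblim1, a filamin-binding adaptor, reached 5% only in C1qa-high cells, and its levels were 0.941 to 3.70 CPM in Ly6c2-high cells (7 UMIs in all) and 11.8 to 14.9 CPM in C1qa-high cells.

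Of 9 tested immunoglobulin-type adhesion molecules and junctional partners, 8 reached 5% in both classes, of which 5 were higher and 3 lower, against 15.1% and 24.0% of all such genes (median 0.39). Higher were, among others, the tetraspanin genes Cd81 (2.62, SE 0.07) and Cd9 (2.56, SE 0.12). Pecam1, which codes a molecule of vessel junctions also found on leukocytes, was just under 5% in Ly6c2-high cells (4.91%). Cd81 was also on the list of resident macrophage markers. Lower were Icam2 (-1.44, SE 0.18), a further ligand of LFA-1, Alcam (-0.61, SE 0.21) and Cd47 (-0.48, SE 0.06), which codes the ligand of the inhibitory receptor SIRPα.

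Genes with the most similar course were sought over the 16 sums of 4 mice and 4 classes by the correlation of log2(CPM + 1), as a description, since the sums share mice and differ in depth. Vcam1 went most closely with Cd81, Npl and Hpgds (r = 0.98, 0.97 and 0.97). Itgax went with Cd93, Abcg3 and Cd9 (r = 0.96 each), Itgb7 with Gsr, Hist1h1e and Il17ra (r = 0.99, 0.98 and 0.98), and Itga4 with Rpl29, Srp19 and Pabpc1 (r = 0.92, 0.92 and 0.90). For Itgb2 the genes were Myo1f, Ywhab and Hist1h1e (r = 0.91, 0.89 and 0.89) and for Icam1 Gadd45b, Asl and Spcs2 (r = 0.81, 0.80 and 0.75). For 3 members the likeness rested in part on the smallest sum, the 17 cells of DEP 13 high in both. Without it, r fell from 0.98 to 0.81 for Itgal with Acaa2, from 0.85 to 0.72 for Itgam with Irak4 and from 0.88 to 0.66 for Itgb1 with Phax. The next genes by r were Ptcd2 and Fgfr1op for Itgal, Pnn and Haus8 for Itgam, and Gipc1 for Itgb1.

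The study's own question was whether exposure to DEP changed these cells. None of the 9 adhesion genes passed the test between DEP and PBS mice in all analysed cells, in Ly6c2-high cells or in C1qa-high cells (edgeR quasi-likelihood test, 2 mice against 2). Over all genes, 0.0% of 6573 were called in all analysed cells and 0.0% of 5632 in Ly6c2-high cells, where 170 and 151 genes had an unadjusted p under 0.05. DESeq2 called 4 and 1 genes there and the edgeR likelihood ratio test 10 and 3. In C1qa-high cells 0.0142% of 7067 genes were called, which was Apol7a alone (log2 fold change 1.77, adjusted p = 0.0459), a gene named after its value was seen. In simulated counts of this design over the 6573 genes of all analysed cells, 15.7% of genes changed 1.5 fold, 66.0% of those changed 2 fold and 100% of those changed 4 fold were recovered.

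In all analysed cells, Itga4 was at 77.4 and 69.2 CPM in DEP 11 and DEP 13 and at 51.9 and 61.7 CPM in PBS 2 and PBS 3. Icam1 was at 79.5 and 81.0 CPM in DEP mice and at 112 and 97.9 CPM in PBS mice, and Itgax at 103 and 96.3 CPM against 77.3 and 83.2 CPM. These were the 3 of 9 genes whose DEP and PBS mice did not overlap, against 26.9% of all genes tested. The fitted differences were 0.37 for Itga4 (95% interval -0.02 to 0.75), -0.39 for Icam1 (-0.73 to -0.04) and 0.31 for Itgax (-0.04 to 0.66). Their unadjusted p were 0.0599, 0.0330 and 0.0739, and the adjusted p was 0.99998 for each (edgeR).

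In the Ly6c2-high cells Itga4 was again higher in both DEP mice (97.0 and 144 CPM) than in the PBS mice (62.5 and 88.7 CPM), by 0.64 (95% interval 0.06 to 1.23, unadjusted p = 0.0335 and adjusted p = 0.999551 by edgeR). With a mouse left out, the difference of Itga4 ran from 0.33 to 0.96. Itgb7, its gut-homing partner, differed by 0.05 in the same cells (95% interval -0.63 to 0.73), and here PBS 2 at 149 and PBS 3 at 62.1 CPM lay on both sides of the DEP mice. Itgb2 (227 and 231 CPM against 182 and 194 CPM) and Itgam (107 and 107 CPM against 83.1 and 96.2 CPM) also had DEP mice above PBS mice, with differences of 0.28 (-0.13 to 0.70) and 0.25 (-0.23 to 0.74). Groups that did not overlap were thus found for 3 of 9 members, against 28.8% of all genes tested in these cells. The monocyte genes summed to 6909 to 6960 CPM in these cells of DEP mice and to 5669 to 6628 CPM in those of PBS mice. Their part in the differences of the members was not tested.

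In the C1qa-high cells Vcam1 was at 119 and 175 CPM in DEP mice and at 95.3 and 120.3 CPM in PBS mice, so DEP 11 lay within the range of the PBS mice. Its difference was 0.45 (95% interval -0.01 to 0.91, unadjusted p = 0.0547 and adjusted p = 0.999947 by edgeR). With a mouse left out, this difference ran from 0.12 to 0.73. The endothelial genes summed to 41.4 to 48.8 CPM in these cells of DEP mice and to 36.1 to 36.5 CPM in those of PBS mice. Most of each sum was Pecam1, which is also found on leukocytes and was at 34.6 to 46.6 CPM in the C1qa-high cells of all mice. The part of endothelial RNA in the Vcam1 difference between DEP and PBS mice was not tested. Itgax was higher in both DEP mice (145 and 121 CPM) than in both PBS mice (100.2 and 112 CPM), by 0.33 (-0.04 to 0.71). Itgal was lower in both DEP mice (22.3 and 23.5 CPM against 27.4 and 27.3 CPM), by 0.25 on the log2 scale (interval -0.70 to 0.20). These 2 of 9 members did not overlap between the groups, against 29.4% of all genes tested. In the same cells the monocyte genes summed to 620 to 768 CPM in DEP mice and 808 to 901 CPM in PBS mice. The T and NK cell genes summed to 3.41 to 4.22 CPM and 6.78 to 9.46 CPM. The part of these genes in the Itgal difference was not tested.

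An interaction term tested whether the DEP difference depended on the class, and none of the 9 genes passed, where 0.074% of 6760 genes were called (C1qb, C1qa, Pf4, Cd63 and Ms4a7, named after their values were seen, with C1qa having cut the classes). The widest interaction estimates were 0.82 for Itgax (95% interval -0.04 to 1.68, adjusted p = 0.854) and -0.51 for Itgal (-1.07 to 0.04, adjusted p = 0.857). With a mouse left out, the estimate for Itgax ran from 0.23 to 1.23 and that for Itgal from -0.70 to -0.16. Of the 4 lists of adhesion genes, 0 tested members passed in any of the 3 comparisons of DEP with PBS. In all analysed cells the list medians lay between -0.05 and 0.07, beside -0.005 for all genes.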

How the data were processed

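The authors sorted lamina propria cells of each mouse into a well of its own (10x Genomics 3′ v2 chemistry) and counted reads with Cell Ranger and STAR 2.6.1a on mm10. They deposited UMI counts per gene and barcode, whole numbers that are not normalized. The mouse was read from the barcode suffix. Of 28692 Ensembl identifiers, 28339 received a symbol. The study's filters left more cells in this table than the study gives, which was not resolved.

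Barcodes were kept with at least 1000 UMIs, log10 genes of at least 2.5, a mitochondrial share above 0 and at most 7%, and fewer than 3 lymphoid or plasma marker UMIs. Doublets were called with scrublet (scanpy 1.11.5) and left out only as an alternative. Total counts were 7585591, 4489342, 10293703 and 9893180 UMIs in DEP 11, DEP 13, PBS 2 and PBS 3, so DEP 13 is the least precise.

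Counts were summed per mouse and class. Genes over 1 CPM in at least 2 sums that had a UMI in 5% or more of the cells were tested with edgeR 4.0.16 (quasi-likelihood F test, TMM scaling, R 4.3.3, Benjamini-Hochberg FDR of 5%), with the mouse as block in the class comparison and the interaction, since each mouse gave both classes. The fits were tested on simulated data. DESeq2 1.42.0, the likelihood ratio test, other cell and gene filters, scalings and cuts, thinning and leaving out each mouse were alternatives.

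Each mouse is a replicate, and the 4 mice were sorted in 1 batch. The members and gene lists were chosen with earlier results of these data known. Named genes were the 9 members, up to 3 called genes per direction of each list by size of change, and the 3 genes most alike to each member. Some genes that this rule names are not reported here.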

Additional observations from a re-analysis of the deposited data

How the results depend on the processing

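In the class comparison, Vcam1, Itgax, Itgb7, Itgal and Itga4 kept their direction and their call under every alternative in which they were tested; after thinning each cell to 1000 UMIs, Itgal and Itgb7 fell under the detection filter, and 812 genes and 3 members were called. These 3 (Vcam1, Itgax and Itga4) then reached the 5% of cells only in the class where each is high, so their calls after thinning are no support. The Itgam difference turned to -0.068 with doubled class cuts, -0.25 with thinned cells, -0.017 without TMM scaling and -0.0063 with DESeq2, and ran from -0.15 to 0.12 with single mice left out; Icam1 turned to 0.22 with thinned cells. Without the mouse as replicate block, 1907 genes and 6 members were called. DEP and PBS mice were different animals with no pairs named between them, so DEP against PBS was not analysed as pairs.

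No member passed between DEP and PBS mice, or in the interaction, under any alternative. In all analysed cells, 84 genes were called without the gene filter, 4 by DESeq2, 10 by the edgeR likelihood ratio test and 0 to 25 with a mouse left out, where the lone mouse of its arm is assumed to vary like the others (25 without DEP 11, 16 without DEP 13, 2 without PBS 2). In Ly6c2-high cells the counts were 18, 1, 3 and 3 to 31 (31 without PBS 2, 25 without PBS 3). In C1qa-high cells they were 71, 3, 12 and 3 to 20 (20 without PBS 2, 13 without DEP 13, 8 without PBS 3), and 2 with a mitochondrial limit of 5%, 3 with lymphoid-marked barcodes kept, 2 with doubled cuts, and 0 with classes from thinned cells, thinned cells, edgeR's own filter or no TMM scaling. For the interaction they were 45, 1, 25 and 1 to 36 (36 without DEP 11, 1 without DEP 13), and 21 with at least 2000 UMIs, 8 with the limit of 5%, 12 with classes from thinned cells, 2 with doubled cuts, 9 with thinned cells and 0 without the replicate block. The cause was not tested.

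Uncalled differences between DEP and PBS changed sign as follows. In all analysed cells, Itgal was 0.0023 with at least 2000 UMIs, and with a mouse left out Itgal ran from -0.10 to 0.048, Itgam from -0.18 to 0.25 and Itgb7 from -0.30 to 0.65. In Ly6c2-high cells, classes from thinned cells gave 0.21 for Vcam1 and -0.011 for Itgb7, doubled cuts 0.79 and -0.015, and thinned cells -0.067 for Itgb2 and 0.18 for Icam1; with a mouse left out Vcam1 ran from -0.50 to 0.39, Itgal from -0.022 to 0.40, Itgax from -0.98 to 0.28 and Itgb7 from -0.42 to 0.76. In C1qa-high cells, Itgam was -0.019 with no other cell filter, -0.018 with lymphoid-marked barcodes kept, -0.017 without called doublets, -0.039 with classes from thinned cells, -0.012 without the gene filter and -0.0048 without TMM scaling; with a mouse left out Itgam ran from -0.23 to 0.23, Itga4 from -0.017 to 0.38, Itgb2 from -0.062 to 0.41 and Itgb7 from -0.68 to 0.14. In the interaction, doubled cuts gave -0.35 for Vcam1, 0.17 for Itgb2 and 0.038 for Icam1, thinned cells 0.13 for Itgam and 0.38 for Itgb2, no other cell filter 0.045 and lymphoid-marked barcodes kept 0.043 for Itgb2; with a mouse left out Itga4 ran from -0.996 to 0.046, Itgb2 from -0.37 to 0.14, Itgb1 from -0.36 to 0.19 and Icam1 from -0.43 to 0.28.

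With 2 mice per group, the simulated DEP comparison in all analysed cells, over randomly changed genes, recovered 15.7% of changes of 1.5 fold. Recovery was not simulated for the adhesion genes alone or within the classes. The sum of 17 cells high in both in DEP 13 is the least precise.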
